A study of Danio rerio with 12 samples.

Results

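The respiratory chain genes of the zebrafish larva were taken by name: genes whose symbol starts with ndufa, ndufb, ndufc, ndufs, ndufv, sdha to sdhd, uqcr, cox4 to cox8, atp5, mt-nd, mt-co, mt-cyb or mt-atp, with the ndufaf assembly factors left out. The rule gave 106 of the 25473 gene identifiers counted, 93 in the nuclear genome and 13 in the mitochondrial genome. Another 4 genes, the SDHAF assembly factors of complex II, begin with the same letters but are not subunits and were set apart, and 0 of them were called in any comparison. Symbols are those of the supplied list of names, often in the human form, so paralogues that share a symbol are told apart by identifier.

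Polyadenylated RNA was measured in whole larvae at 3 days post-fertilization, with 4 libraries for each of 3 genotypes. These were double mutants of yap and taz (yap-/-;taz-/-, here yap taz mutants), single mutants of yap (yap-/-, here yap mutants), and wild type (WT). Yap and Taz are related transcriptional co-activators that the Hippo kinases hold in check. The labels do not say which alleles were used, how many larvae went into a library or whether libraries came from separate clutches, so each p-value reflects the spread of 4 libraries per genotype, which may be technical.

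The respiratory chain passes electrons from food through complexes in the inner mitochondrial membrane and pumps protons as it does so. Complex I (NADH dehydrogenase, the NDUF and MT-ND genes) and complex II (succinate dehydrogenase, the SDH genes) feed electrons in. Complex III (the UQCR genes and MT-CYB) passes them to cytochrome c. Complex IV (cytochrome c oxidase, the COX and MT-CO genes) gives them to oxygen, and complex V (ATP synthase, the ATP5 and MT-ATP genes) uses the proton gradient to make ATP. The mitochondrial genome encodes a few core subunits of complexes I, III, IV and V, transcribed inside the organelle as long RNAs that are then cut, while every subunit of complex II and the great majority of the others come from nuclear genes. Muscle, heart and photoreceptors are tissues known for a high content of these complexes.

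Nuclear genes supplied 38 of the 106 to complex I, 5 to complex II, 8 to complex III, 22 to complex IV and 20 to complex V. Mitochondrial genes supplied 7 to complex I, 1 to complex III, 3 to complex IV and 2 to complex V. NDUFA4, ndufa4b, NDUFA4L2 and ndufa4l2b were counted with complex IV, since NDUFA4 is a subunit of cytochrome c oxidase in spite of its name. Of the 106 genes 104 passed the filter on low counts. The other 2, NDUFA12 (ENSDARG00000042469) and ndufa4l2b (ENSDARG00000087907), reached at most 0.497 and 0.148 CPM (counts scaled to a common library total with TMM factors) in any library and were not tested.

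Library totals ran between 7028251 and 8657381 counts, and 3 counts equal 0.334 to 0.443 CPM. As a check of the labels, YAP1 (ENSDARG00000068401) averaged 69.9 ± 3.91 CPM in yap taz mutants, 59.9 ± 7.62 CPM in yap mutants and 88.4 ± 7.99 CPM in WT (SD, n = 4 each), and WWTR1 (ENSDARG00000067719), which encodes Taz, averaged 5.56 ± 0.886 CPM in yap taz mutants, 10.4 ± 1.17 CPM in yap mutants and 7.03 ± 1.33 CPM in WT. YAP1 was called lower than in WT in both mutants. WWTR1 was called higher in yap mutants than in WT, and lower in yap taz mutants than in yap mutants (log2 fold change -0.90, adjusted p = 0.00673, edgeR). In yap taz mutants against WT its libraries overlapped and it was not called (-0.35, adjusted p = 0.156), so that comparison does not by itself bear out the taz label. Within WT, libraries 2 and 3 stood above libraries 1 and 4 in 80 of 91 tested nuclear and 12 of 13 mitochondrial respiratory chain genes, against 27.6% of all genes tested. Within yap mutants, library 3 was the highest of the 4 in 87 of 91 nuclear genes but in 2 of 13 mitochondrial genes, against 29.2% of all genes tested. Counts of called genes and median fold changes are also given with 1 library left out at a time. WT 2 and WT 3 were not left out together, and percent changes of summed levels are given with all libraries only. Deviations of yap mutant and WT libraries with the same number were correlated at 0.18, 0.306, 0.282 and 0.388 over genes, so that comparison is also given with the library number as a block.

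Among markers of other tissues, the summed level of 9 tested fast skeletal muscle genes was 57724 to 79275 CPM in yap taz mutants, 56381 to 65330 CPM in yap mutants and 45830 to 52163 CPM in WT, and 7 of the 9 were called higher in yap taz mutants than in WT. Over all genes tested 13.9% were called higher and 13.8% lower in that comparison. The summed cardiac muscle list was at 103 to 157 CPM in yap taz mutants, 187 to 237 CPM in yap mutants and 185 to 215 CPM in WT, with 6 of 9 tested called lower and 1 higher in yap taz mutants than in WT. Photoreceptor genes summed to 727 to 996 CPM in yap taz mutants, 958 to 1177 CPM in yap mutants and 1355 to 1927 CPM in WT, with 7 of 10 called lower and 1 higher in yap taz mutants. Macrophage and neutrophil genes summed to 85.3 to 105.6 CPM in yap taz mutants, 50.3 to 79.0 CPM in yap mutants and 37.8 to 58.7 CPM in WT, with 5 of 7 tested called higher in yap taz mutants than in WT. In the other 5 marker lists the calls in that comparison were 2 higher and 4 lower of 9 hepatocyte genes, 2 lower of 9 neuron genes, 1 higher and 1 lower of 7 epidermis genes, 2 higher and 1 lower of 7 ionocyte genes, and 2 lower of 5 erythrocyte genes. In whole larvae, fewer cells of a type and less RNA per cell cannot be told apart, and the part of these shifts in the respiratory chain results was not tested.

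RNA of the respiratory chain was lower in yap taz mutants than in WT in both genomes and in every complex. The summed level of the 13 mitochondrial genes was 26091, 26446, 27382 and 25751 CPM in yap taz mutant libraries 1 to 4, 29097, 34513, 33004 and 30387 CPM in yap mutants, and 31289, 40700, 38853 and 31390 CPM in WT. Each yap taz mutant library lay below each library of the other genotypes, while yap mutants and WT overlapped. The summed level of the 93 nuclear genes was 12852, 13801, 13954 and 12992 CPM in yap taz mutants, 13202, 14739, 17237 and 13116 CPM in yap mutants, and 15414, 18220, 17727 and 14889 CPM in WT. Here too no yap taz mutant library reached WT, but yap mutant libraries 1 and 4 lay within the yap taz mutant range, library 2 lay between the ranges and library 3 lay within that of WT.

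As a change of group means, the mitochondrial sum was -25.7% and the nuclear sum -19.1% in yap taz mutants against WT. In yap taz mutants against yap mutants the values were -16.8% for the mitochondrial sum, with no overlap of libraries, and -8.05% for the nuclear sum, with overlap. In yap mutants against WT they were -10.7% and -12.0%, with overlap in both. These changes include the high WT libraries 2 and 3. The mitochondrial sums of WT 1 and WT 4, 31289 and 31390 CPM, lay below the yap mutant mean of 31750 CPM. Their nuclear sums, 15414 and 14889 CPM, lay above the yap mutant mean of 14573 CPM. Set against the WT library of the same number, the mitochondrial sum of yap mutants was -7.00%, -15.2%, -15.1% and -3.20% in pairs 1 to 4, and the nuclear sum was -14.3%, -19.1%, -2.76% and -11.9%. The sums were thus lower in yap mutants in each of the 4 pairs. Pair 3, which holds the yap mutant library that stood apart, had the smallest nuclear difference. The labels state no pairing, and the pairs were taken from correlations within these same counts, so they are a description and no independent support.

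**Figure D1:**
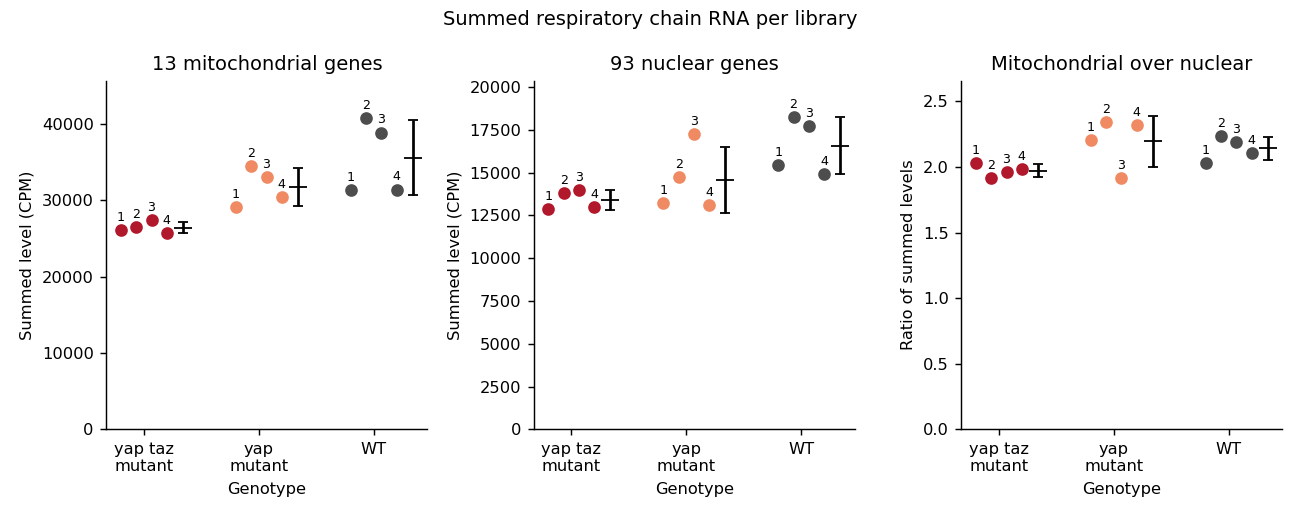
Summed level in CPM of the 13 mitochondrial and 93 nuclear respiratory chain genes, and the ratio of the sums, by genotype. Numbered points are libraries 1 to 4, and bars give the mean ± SD (n = 4). Libraries of yap taz mutants lie at 25751 to 27382 CPM for the mitochondrial genes, below every other library, and yap mutant library 3 has the lowest ratio, 1.91.

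In yap taz mutants the ratio of the genomes differed less from WT than either sum did, in part because both sums were lower. The ratio of mitochondrial to nuclear sums was 2.03, 1.92, 1.96 and 1.98 in yap taz mutants, 2.20, 2.34, 1.91 and 2.32 in yap mutants, and 2.03, 2.23, 2.19 and 2.11 in WT. This ratio overlapped between genotypes, with yap taz mutants reaching library 3 of yap mutants and library 1 of WT. The ratio is read from polyadenylated RNA, and mitochondrial RNAs carry short tails, so it describes these libraries and not the RNA content of the organelle.

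Tested gene by gene, with edgeR's quasi-likelihood test and Benjamini-Hochberg adjustment over all 19493 genes tested, 12 of 13 mitochondrial genes and 46 of 91 nuclear genes fell in yap taz mutants against WT at an adjusted p under 0.05. Over all genes tested, 13.8% were called lower in this comparison. One nuclear gene, NDUFA4L2, rose, where 13.9% of all genes were called higher and 27.7% in either direction. The median log2 fold change was -0.47 over the 13 mitochondrial genes, -0.32 over the 91 nuclear genes and 0.01 over all genes tested. Libraries of the 2 genotypes did not overlap, with yap taz mutants lower, in 11 mitochondrial and 48 nuclear genes, against 14.4% of all genes.

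The fall was not concentrated in 1 complex. Of the nuclear genes tested, 19 of 37 in complex I (median log2 fold change -0.33), 1 of 5 in complex II (-0.26) and 6 of 8 in complex III (-0.39) fell. So did 10 of 21 in complex IV (-0.28) and 10 of 20 in complex V (-0.31). Over all genes tested 13.8% were called lower, and the 1 of 5 of complex II is near that share. The summed level of each complex, in each genome, was lower in every yap taz mutant library than in every WT library. The change of group means was -19.7% for nuclear complex I, -17.3% for complex II, -23.6% for complex III, -17.5% for complex IV and -18.7% for complex V. For the mitochondrial genes it was -29.9% in complex I, -25.7% in complex III, -22.3% in complex IV and -34.1% in complex V. Differences between complexes were not tested.

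The nuclear count rests in part on WT libraries 2 and 3: without WT 2 it was 28 genes, and without WT 3 it was also 28, with medians of -0.27 in both cases. The 12 mitochondrial calls held in all 22 alternatives, and 26 of the 47 nuclear calls did. In yap taz mutants against WT, 1 mitochondrial gene, MT-CO2, and 44 nuclear genes were not called.

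**Figure D2:**
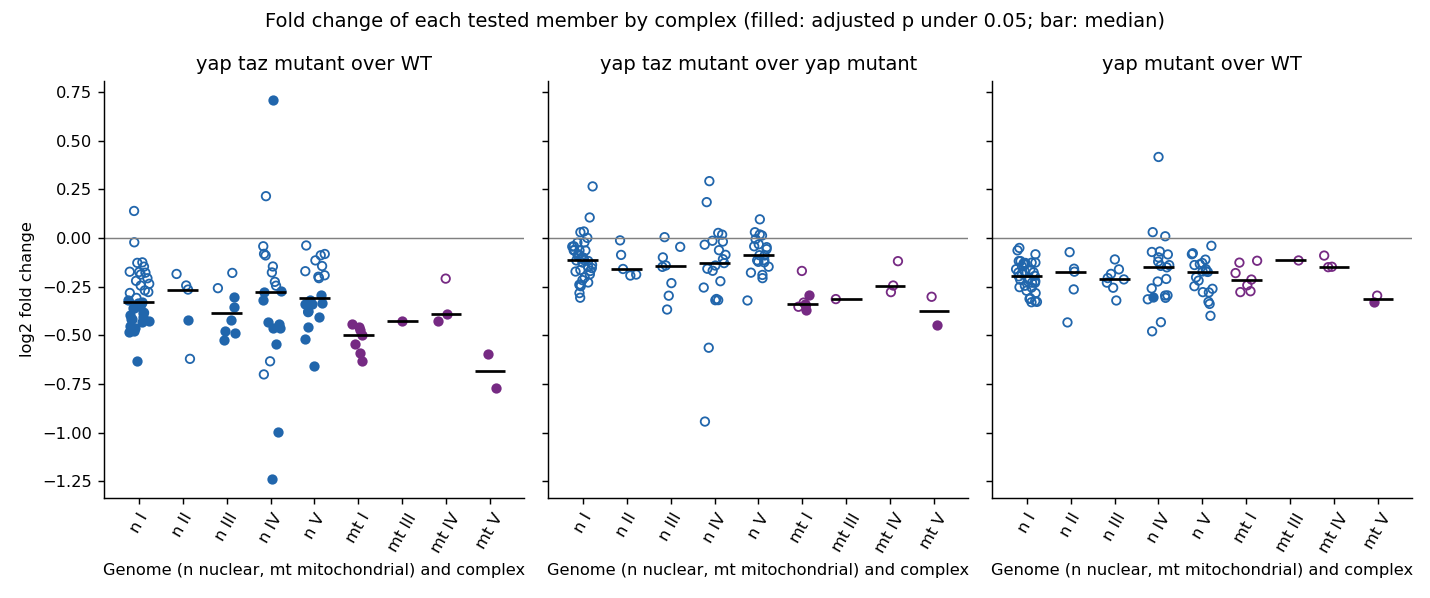
Log2 fold change (y axis) of each of the 104 tested genes, by genome and complex (x axis: n nuclear, mt mitochondrial), in yap taz mutants over WT, yap taz mutants over yap mutants, and yap mutants over WT. Filled points have an adjusted p under 0.05 and black bars are medians; in yap taz mutants over WT the medians run between -0.26 and -0.68.

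Estimates for the 13 mitochondrial genes in yap taz mutants against WT ran between -0.77 and -0.21, and differences between genes were not tested. The largest fall was that of mt-atp8 (ENSDARG00000063910), a small membrane subunit of ATP synthase, at 65.0, 53.6, 64.2 and 67.8 CPM in yap taz mutants, 81.4, 95.4, 89.8 and 74.4 CPM in yap mutants, and 98.3, 121, 104 and 105 CPM in WT. The 3 genotypes did not overlap, with yap mutants in between. The log2 fold change was -0.77 ± 0.10 (SE; adjusted p = 2.82e-05, edgeR) in yap taz mutants against WT, -0.44 ± 0.10 (adjusted p = 0.0165) against yap mutants, and -0.33 ± 0.10 (adjusted p = 0.0436) in yap mutants against WT. Between the mutants the call was lost without yap mutant 2 (adjusted p = 0.0622) or yap taz mutant 2 (adjusted p = 0.0604).

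MT-ATP6 (ENSDARG00000063911), the subunit that forms the proton path of ATP synthase, had 2415, 2473, 2655 and 2570 CPM in yap taz mutants, 2701, 3387, 3382 and 2991 CPM in yap mutants, and 3087, 4400, 4090 and 3717 CPM in WT. All yap taz mutant libraries were below all others, and yap mutants and WT overlapped through WT library 1. The gene fell by 0.60 on the log2 scale in yap taz mutants against WT (SE 0.10, adjusted p = 0.000404, edgeR). In yap mutants against WT it was at -0.30 and not called (adjusted p = 0.0791). It was called there only with the library number as a block (-0.29, adjusted p = 0.0139), a pairing taken from these same counts and so no independent support.

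The complex I genes of the mitochondrial genome, which encode the membrane arm of the enzyme, fell by a narrow range of sizes in yap taz mutants against WT, with log2 fold changes of -0.44 (MT-ND6) to -0.63 (MT-ND3) and all 7 called. MT-ND5 (ENSDARG00000063921) had 1070, 971, 1086 and 1105 CPM in yap taz mutants, 1276, 1392, 1224 and 1294 CPM in yap mutants, and 1352, 1606, 1546 and 1368 CPM in WT. Both other genotypes lay above yap taz mutants without overlap. MT-ND3 (ENSDARG00000063914) had 223, 228, 229 and 241 CPM in yap taz mutants, 247, 314, 342 and 273 CPM in yap mutants, and 311, 396, 399 and 318 CPM in WT. Both changed against WT, MT-ND5 at -0.47 ± 0.08 (adjusted p = 0.000261) and MT-ND3 at -0.63 ± 0.11 (adjusted p = 0.000371, edgeR).

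Also of complex I, mt-nd4l (ENSDARG00000063916) had 121, 102, 116 and 116 CPM in yap taz mutants, 140, 165, 147 and 137 CPM in yap mutants, and 156, 162, 169 and 156 CPM in WT. Its fold change was -0.50 ± 0.08 (adjusted p = 0.000209, edgeR) in yap taz mutants against WT and -0.37 ± 0.08 (adjusted p = 0.0129) against yap mutants, so that most of the distance lay between the mutants. MT-ND1 was at -0.54, MT-ND2 at -0.59 and MT-ND4 at -0.46 in yap taz mutants against WT, all called. In complex III the 1 mitochondrial gene, MT-CYB (ENSDARG00000063924), the cytochrome b of the complex, had 2911, 2785, 2702 and 2762 CPM in yap taz mutants, 3279, 3773, 3630 and 3185 CPM in yap mutants, and 3406, 4310, 4061 and 3237 CPM in WT. It fell to a level below every yap mutant and WT library in yap taz mutants (-0.43 ± 0.09, adjusted p = 0.0023 against WT).

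Of the 3 catalytic core genes of complex IV, 2 were called. MT-CO1 (ENSDARG00000063905), which holds the oxygen-reducing centre, fell in yap taz mutants against WT (-0.43 ± 0.09, adjusted p = 0.0027, edgeR), and so did MT-CO3 (-0.39 ± 0.10, adjusted p = 0.00751). MT-CO2 (ENSDARG00000063908), which takes electrons from cytochrome c, had 3770, 4180, 4019 and 3682 CPM in yap taz mutants, 3831, 4628, 4597 and 3931 CPM in yap mutants, and 4078, 5185, 5016 and 3800 CPM in WT. Here yap taz mutants overlapped both other genotypes, and the fold change against WT was -0.21 ± 0.10 (adjusted p = 0.14), which does not show that the levels were alike. It was called lower in 3 of 22 alternatives (the replicate block, the block with 8 libraries alone, and without WT 4), and its adjusted p ran between 0.0278 and 0.374 over the 22.

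Relative to the rest of its genome MT-CO2 was higher in yap taz mutants. It made up 14.5%, 15.8%, 14.7% and 14.3% of the mitochondrial sum in yap taz mutants, 13.2%, 13.4%, 13.9% and 12.9% in yap mutants, and 12.1% to 13.03% in WT, with the highest share in library 1. The yap taz mutant shares lay above all others. Along the mitochondrial genome MT-CO2 stands just before mt-atp8 and MT-ATP6, in the RefSeq order of names, so the estimate nearest to 0 and the one farthest from it were those of neighbours. The neighbours mt-atp8 and MT-ATP6, and likewise mt-nd4l and MT-ND4, overlap in vertebrate mitochondrial genomes, so reads from the shared stretches may not have been told apart. MT-ND6 lies on the strand opposite the others. No source used here gives the strand setting of the counting, so reads of MT-ND6 and of RNA from the other strand may not have been told apart either.

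**Figure D3:**
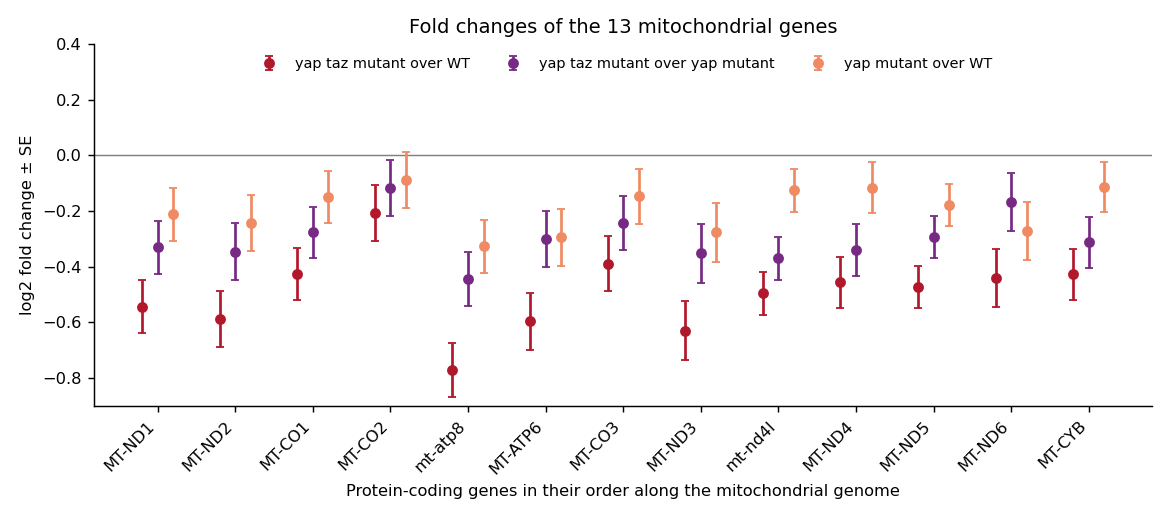
Log2 fold change ± SE (y axis) of the 13 mitochondrial genes in their order along the mitochondrial genome (x axis), for the 3 comparisons. In yap taz mutants over WT every point is below 0, MT-CO2 being the nearest to it at -0.21 and its neighbour mt-atp8 the farthest at -0.77.

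Between the mutants, calls were made among the mitochondrial genes and not among the nuclear genes. In yap taz mutants against yap mutants 4 of 13 mitochondrial genes fell (mt-nd4l, mt-atp8, MT-ND5 and MT-ND4), where 2.26% of all genes were called lower, and 0 of 91 nuclear genes were called in either direction, where 4.18% of all genes were called and 1.92% were called higher. By the unadjusted p 14 nuclear genes were under 0.05, and DESeq2 called 3 lower. Medians were -0.31 for mitochondrial and -0.11 for nuclear genes. Libraries did not overlap, with yap taz mutants lower, for 11 of 13 mitochondrial and 4 of 91 nuclear genes, against 5.53% of all genes.

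These 4 calls depended on single libraries. MT-ND5 was at -0.29 ± 0.08 (adjusted p = 0.0391, edgeR) and MT-ND4 at -0.34 ± 0.09 (adjusted p = 0.0484), and each was lost in 8 of 22 alternatives, with adjusted p up to 0.123 and 0.136. The count was 0 without yap mutant 2 and 0 without yap taz mutant 2. For mt-nd4l the adjusted p was then 0.0525 and 0.0513. Without yap mutant 3 the nuclear median between the mutants was -0.01, while the mitochondrial median was -0.29 and 3 mitochondrial genes were called lower, where 1.51% of all genes were. The difference between genomes was not tested.

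In yap mutants against WT most respiratory chain genes had lower estimates and few passed the test. The estimate was below 0 for 13 of 13 mitochondrial and 88 of 91 nuclear genes, with medians of -0.18 in both genomes, beside 0.00 over all genes tested. In the fit without a block 1 nuclear gene, COX4I1, and 1 mitochondrial gene, mt-atp8, fell and 0 rose, where 9.13% of all genes were called, 3.41% lower and 5.72% higher. All yap mutant libraries lay below all WT libraries for mt-atp8 and for 1 nuclear gene, cox8b, as for 5.36% of all genes. With the library number as a block 21 nuclear and 4 mitochondrial genes fell, where 6.14% of all genes did. That block was fitted over all 12 libraries, so it also grouped the yap taz mutant libraries, whose numbers were not taken to pair. With the block and these 8 libraries alone 29 nuclear and 6 mitochondrial genes fell, where 8.22% did.

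Leaving out yap mutant 3 in the fit without a block gave 43 nuclear and 3 mitochondrial genes called lower, where 7.12% of all genes were, and a nuclear median of -0.29. Leaving out any of WT 2, WT 3, yap mutant 1 or yap mutant 4 gave 0 nuclear and 0 mitochondrial calls. So did leaving out yap taz mutant 1 or yap taz mutant 3, which enter this comparison only through the shared fit. Without yap mutant 2 the nuclear count was 0 as well. Without WT 4 it was 7, with 0 mitochondrial calls, and without WT 1 it was 2, with 3 mitochondrial calls. The genotype means were ordered yap taz mutant, yap mutant, WT from low to high for 13 of 13 mitochondrial and 76 of 91 nuclear genes, beside 26.7% of all genes tested.

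The genes called lower with the block in yap mutants were led by COX4I1 (-0.30, adjusted p = 0.00846), atp5mc1 (-0.35, adjusted p = 0.0128) and MT-ATP6. They held members of all 5 complexes. Among them were cox8b (-0.43, adjusted p = 0.0173) and cox5aa (-0.30, adjusted p = 0.0186) of complex IV and UQCRFS1 (-0.33, adjusted p = 0.0177) of complex III. Others were ndufc2 (-0.33, adjusted p = 0.0175) of complex I and SDHD (ENSDARG00000030139, -0.27, adjusted p = 0.0403) of complex II. The block was taken from correlations within these same counts, and with it 6.14% of all genes were called lower. Of all respiratory chain genes, the fit without the block called COX4I1 and mt-atp8 alone. Without the block COX4I1 had an adjusted p of 0.0432 and lost its call in 9 of 22 alternatives, with values up to 0.134, and mt-atp8 lost its call in 8, with values up to 0.137. Both had an adjusted p above 0.05 when these 8 libraries were fitted alone without the block (0.0817 for COX4I1 and 0.0635 for mt-atp8).

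Among the nuclear genes of complex I, the subunits that carry electrons divided into called and uncalled. NDUFS1 (ENSDARG00000028546), the largest iron-sulphur subunit, had 190, 201, 216 and 208 CPM in yap taz mutants, 243, 247, 283 and 217 CPM in yap mutants, and 270, 309, 278 and 258 CPM in WT. No library of yap taz mutants reached the other genotypes, which overlapped each other. The gene fell by 0.45 on the log2 scale against WT (SE 0.09, adjusted p = 0.000968, edgeR).

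NDUFV2, an iron-sulphur subunit of the NADH-oxidising end, fell in yap taz mutants against WT (-0.34 ± 0.10, adjusted p = 0.0147, edgeR), with 0.0552 without WT 2 and 0.0511 without yap taz mutant 1. NDUFV1, which binds the flavin that takes electrons from NADH, had 197, 193, 210 and 193 CPM in yap taz mutants and 196, 210, 243 and 254 CPM in WT, and was not called (-0.19 ± 0.09, adjusted p = 0.128). NDUFS7, which carries the last iron-sulphur cluster before quinone, was not called either (-0.22 ± 0.10, adjusted p = 0.104).

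The complex I member with the largest nuclear fall was ndufab1b (ENSDARG00000014915), 1 of a pair of mitochondrial acyl carrier protein genes, at 38.6, 42.7, 47.7 and 40.8 CPM in yap taz mutants, 46.5, 50.4, 70.9 and 42.0 CPM in yap mutants, and 57.0, 74.8, 73.2 and 58.6 CPM in WT. Levels in yap taz mutants did not overlap WT, and yap mutant 3 lay with WT. It fell by 0.63 (SE 0.14, adjusted p = 0.00331) in yap taz mutants against WT, and its paralogue NDUFAB1 was at -0.27 ± 0.12 (adjusted p = 0.0987). The only complex I gene with an estimate above 0 in that comparison was NDUFA6 (0.14, adjusted p = 0.37), named here after its values were seen.

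Complex II, made by nuclear genes alone, had 1 call. SDHD (ENSDARG00000030139), a membrane anchor, had 68.2, 67.3, 69.3 and 64.2 CPM in yap taz mutants, 65.8, 79.7, 90.5 and 64.3 CPM in yap mutants, and 85.8, 101, 95.5 and 78.8 CPM in WT, and fell against WT (-0.42 ± 0.11, adjusted p = 0.0074, edgeR). SDHA (ENSDARG00000016721), the flavin subunit that oxidises succinate, had 167, 164, 186 and 172 CPM in yap taz mutants and 194, 227, 221 and 186 CPM in WT, and its adjusted p of 0.0501 missed the threshold (-0.26 ± 0.10). SDHA was called lower in 14 of 22 alternatives, and its adjusted p ran between 0.0188 and 0.141 over the 22. SDHB, the iron-sulphur subunit, was at -0.24 ± 0.10 (adjusted p = 0.0941). A second identifier with the symbol SDHD (ENSDARG00000055712) stayed between 0.591 and 2.24 CPM in all libraries and was not called (adjusted p = 0.181).

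In complex III 6 of 8 nuclear genes tested fell in yap taz mutants against WT, where 13.8% of all genes were called lower. UQCRC1 (ENSDARG00000052304), a core subunit on the matrix side, had 255, 250, 269 and 255 CPM in yap taz mutants, 282, 304, 367 and 255 CPM in yap mutants, and 343, 386, 395 and 318 CPM in WT. Every library of yap taz mutants was below WT, and yap mutant 4 lay at the yap taz mutant level. The fall against WT was -0.49 ± 0.10 (adjusted p = 0.00193, edgeR). UQCRFS1, the Rieske iron-sulphur protein, fell too (-0.42 ± 0.10, adjusted p = 0.00689), as did uqcrc2a, a paralogue of the other core subunit (-0.48 ± 0.10, adjusted p = 0.00231).

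Complex IV held the largest falls and the 1 gene called higher in yap taz mutants against WT, among genes for isoforms. Isoform groups were named by rule where their calls differed, so their division follows from the choice and is no finding. COX4I1 (ENSDARG00000032970), the common isoform of subunit 4, had 298, 318, 312 and 293 CPM in yap taz mutants, 312, 339, 387 and 307 CPM in yap mutants, and 391, 442, 457 and 367 CPM in WT. It fell in yap taz mutants against WT without overlap (-0.44 ± 0.09, adjusted p = 0.00146, edgeR). COX4I2 (ENSDARG00000022509), whose mammalian counterpart is the isoform of lung and of low oxygen, had 31.7, 37.8, 34.4 and 33.1 CPM in yap taz mutants, 25.2, 32.1, 30.5 and 32.8 CPM in yap mutants, and 30.5, 31.1, 31.3 and 25.3 CPM in WT.

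For COX4I2 all yap taz mutant libraries lay above all WT libraries, as for 14.5% of all genes, but the change was not called (0.22 ± 0.10, adjusted p = 0.125). Another gene of the group, cox4i1l, was at -0.63 ± 0.28 (adjusted p = 0.104). The difference in fold change between isoforms was not tested.

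Calls differed within the NDUFA4 group too. ndufa4b (ENSDARG00000056108) had 159, 160, 165 and 149 CPM in yap taz mutants, 184, 203, 229 and 172 CPM in yap mutants, and 216, 269, 237 and 199 CPM in WT. All yap taz mutant libraries were below all libraries of yap mutants and WT. It fell by 0.54 against WT (SE 0.10, adjusted p = 0.000795, edgeR). Its paralogue NDUFA4 (ENSDARG00000099499) had 230, 255, 269 and 231 CPM in yap taz mutants, 225, 244, 278 and 220 CPM in yap mutants, and 229, 281, 278 and 226 CPM in WT, with ranges that overlapped throughout (-0.04 ± 0.10, adjusted p = 0.786).

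NDUFA4L2 (ENSDARG00000103114), whose mammalian counterpart is a target of the hypoxia-inducible factor, was the 1 respiratory chain gene that rose. It had 5.32, 5.39, 7.24 and 5.40 CPM in yap taz mutants, 4.47, 4.18, 4.87 and 5.47 CPM in yap mutants, and 4.56, 4.08, 2.87 and 2.70 CPM in WT. Its yap taz mutant libraries lay above WT without overlap, and yap mutants overlapped both. The rise against WT was 0.71 ± 0.20 (adjusted p = 0.0147, edgeR), and without yap taz mutant 3, its highest library, the adjusted p was 0.053.

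The largest falls of all were those of cox7a1 and cox8b, genes whose mammalian counterparts mark the cytochrome c oxidase of heart and skeletal muscle. cox7a1 (ENSDARG00000069464) had 2.06, 2.76, 3.40 and 2.97 CPM in yap taz mutants, 4.84, 6.34, 6.79 and 3.43 CPM in yap mutants, and 4.67, 8.82, 8.85 and 4.15 CPM in WT. All yap taz mutant libraries were below all others, and yap mutants spanned much of the WT range. It fell by 1.24 on the log2 scale against WT (SE 0.29, adjusted p = 0.00503, edgeR). The size of that fall rests in part on WT 2 and WT 3, at 8.82 and 8.85 CPM beside 4.67 and 4.15 CPM in WT 1 and WT 4.

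cox8b (ENSDARG00000097209) had 10.4, 12.9, 10.5 and 10.1 CPM in yap taz mutants, 15.5, 18.5, 18.7 and 12.2 CPM in yap mutants, and 19.0, 28.6, 21.1 and 19.2 CPM in WT. No yap taz mutant library reached WT, and library 2 of yap taz mutants exceeded library 4 of yap mutants. The fall against WT was -0.995 ± 0.16 (adjusted p = 0.000262, edgeR). Beside these, the cardiac marker list was lower in yap taz mutants than in WT without overlap of its sums and the fast skeletal muscle list was higher, as given above; their part in these falls was not tested.

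Of the counterpart isoforms, some fell and others were not called. COX7A2 (ENSDARG00000053217), the broadly used isoform of subunit 7a, fell (-0.46 ± 0.10, adjusted p = 0.00311), and it is named here after its values were seen. cox8a (ENSDARG00000095273) had 203, 201, 203 and 180 CPM in yap taz mutants, 183, 177, 241 and 175 CPM in yap mutants, and 187, 218, 229 and 197 CPM in WT, with overlap of all genotypes (-0.08 ± 0.10, adjusted p = 0.597). Of subunit 6b, cox6b1 fell (-0.43 ± 0.12, adjusted p = 0.0128) and cox6b2 was at -0.09 ± 0.09 (adjusted p = 0.494).

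Of subunit 5a, cox5aa fell by 0.46 (SE 0.09, adjusted p = 0.00162) and COX5A by 0.27 (SE 0.10, adjusted p = 0.0479), a call lost in 6 of 22 alternatives, such as without WT 2 (adjusted p = 0.144). Of the 2 identifiers named COX5B, ENSDARG00000015978 fell (-0.32 ± 0.10, adjusted p = 0.0307), a call lost in 5 of 22 alternatives with values up to 0.105, and ENSDARG00000068738, at 3.24 to 6.71 CPM over all libraries, was not called (-0.24 ± 0.20, adjusted p = 0.386).

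**Figure D4:**
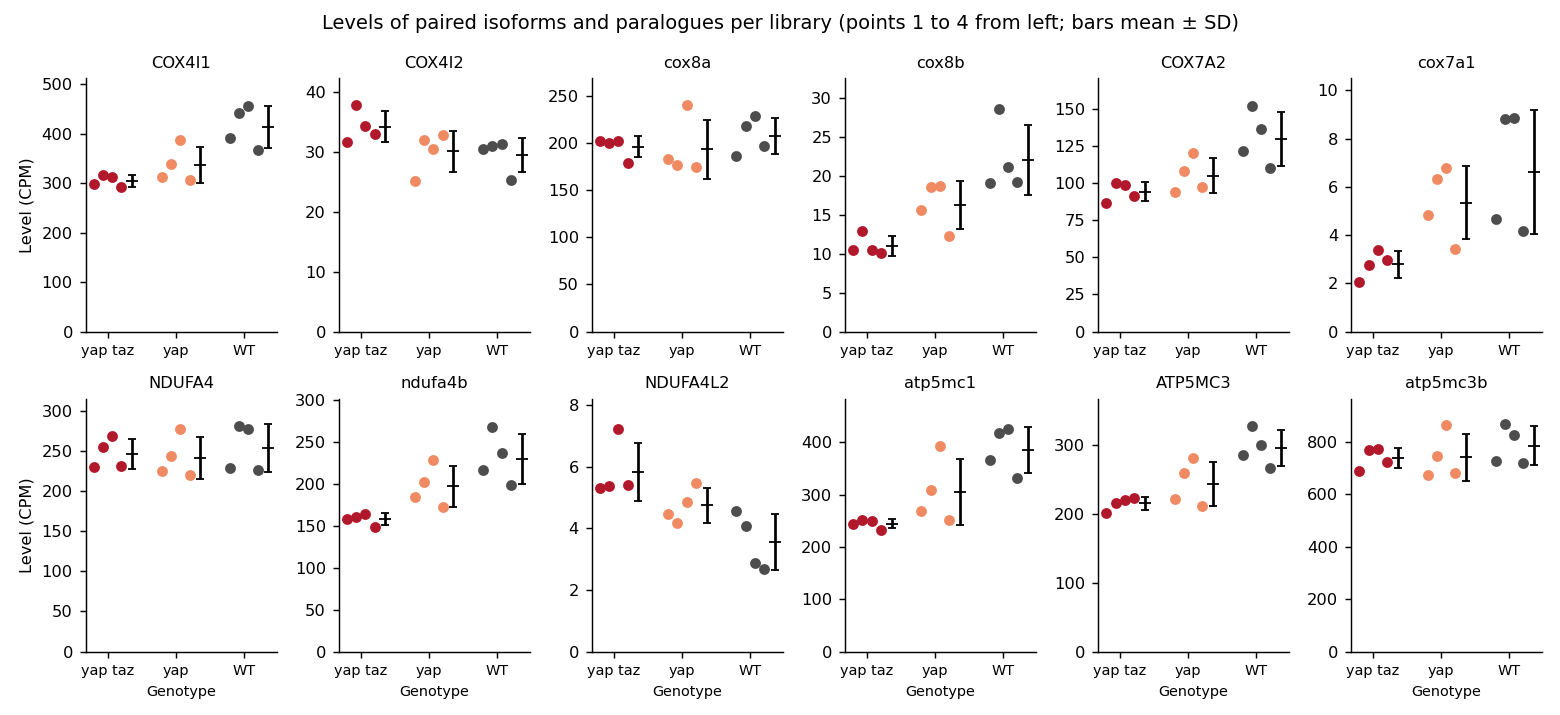
Level in CPM (y axis) of 12 genes from groups of isoforms or paralogues of complexes IV and V, by genotype (x axis), with a separate scale for each gene. Points are libraries 1 to 4 from left to right, and bars give the mean ± SD (n = 4); yap taz mutant libraries lie below all WT libraries for COX4I1, cox8b, COX7A2, cox7a1, ndufa4b, atp5mc1 and ATP5MC3, and above them for COX4I2 and NDUFA4L2.

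In complex V the genes for both main chains of the catalytic head fell. ATP5F1B (ENSDARG00000070083), the beta chain that makes ATP, had 1251, 1322, 1447 and 1296 CPM in yap taz mutants, 1403, 1580, 1777 and 1371 CPM in yap mutants, and 1669, 1979, 1866 and 1536 CPM in WT. Again yap taz mutants did not overlap WT, and yap mutant 3 lay within WT. The fall against WT was -0.41 ± 0.10 (adjusted p = 0.00476, edgeR). ATP5F1A, the alpha chain, fell by 0.29 (SE 0.10, adjusted p = 0.0322), a call lost in 5 of 22 alternatives, with an adjusted p of 0.107 without WT 2.

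The c subunit forms the rotating ring and in mammals is made as the same mature protein from several genes. Its genes were named as a group because some were called and others were not. atp5mc1 (ENSDARG00000056008) had 243, 252, 249 and 232 CPM in yap taz mutants, 268, 308, 392 and 250 CPM in yap mutants, and 365, 418, 425 and 332 CPM in WT. The gap between yap taz mutants and WT exceeded the spread within yap taz mutants, and yap mutants ran between them, with library 4 at the yap taz mutant level and library 3 at that of WT. The fall against WT was -0.66 ± 0.12 (adjusted p = 0.000645, edgeR).

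ATP5MC3 (ENSDARG00000017775) fell as well (-0.46 ± 0.09, adjusted p = 0.00169), while atp5mc3b (ENSDARG00000009447) had 688, 768, 771 and 724 CPM in yap taz mutants, 672, 746, 865 and 680 CPM in yap mutants, and 728, 866, 827 and 717 CPM in WT. The 3 genotypes overlapped and atp5mc3b was not called (-0.09 ± 0.09, adjusted p = 0.506). The inhibitor proteins of ATP synthase, atp5if1a and atp5if1b, were not called in any comparison.

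Over the 12 libraries, the nuclear genes whose log2 level followed the mean of the 13 mitochondrial genes most closely were NDUFS8 of complex I (Pearson r = 0.945), ndufa4b of complex IV (0.943), cox7a1 (0.930), ATP5F1B of complex V (0.923) and cox8b (0.922). The median r over the 91 genes was 0.79. The lowest values were those of NDUFA4L2 (-0.699), NDUFA6 (-0.410) and COX4I2 (-0.345). These 12 points share the 3 genotypes and the differences of depth and composition between libraries, so the values are a description and say nothing of shared control.

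Other genes of the mitochondrion were read from 13 lists. Both tested genes of the cytochrome c list, which covers electron transfer between complexes III and IV, fell in yap taz mutants against WT: cycsb, a cytochrome c gene (-0.53 ± 0.11, adjusted p = 0.00177), and CYC1, the cytochrome c1 of complex III (-0.36 ± 0.09, adjusted p = 0.0084, edgeR). Of the assembly factors of complex I, 7 of 15 tested fell and 1 rose, where 13.8% of all genes fell and 13.9% rose. NDUFAF1 (-0.49) and ACAD9 (-0.47), which build the membrane arm together, fell, and NDUFAF7 (0.55), a methyltransferase of the complex, rose. Of the assembly factors of complexes II to V 7 of 36 fell, a share near the 13.8% of all genes, and 0 rose. Those that fell included COA7 (-0.58) and the copper chaperone SCO1 (-0.51), which act in complex IV assembly, and UQCC1 of complex III (-0.37).

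Genes of the pathways that feed electrons to the chain fell as well, beside 13.8% of all genes that fell and 13.9% that rose. Of 22 genes tested on the TCA cycle list 12 fell and 0 rose in yap taz mutants against WT. The list also holds genes beside the cycle, such as those of pyruvate dehydrogenase and pyruvate carboxylase. IDH3B (-0.69 ± 0.12, adjusted p = 0.000404) and IDH3G (-0.44 ± 0.08, adjusted p = 0.000447), subunits of the NAD-dependent isocitrate dehydrogenase, fell. Of the 2 identifiers of pyruvate carboxylase, PC, ENSDARG00000051939 fell (-0.48 ± 0.08, adjusted p = 0.000424, edgeR). The other PC identifier, ENSDARG00000098766, was at 0.16 ± 0.08 (adjusted p = 0.15) and not called. Of 19 fatty acid oxidation genes 13 fell and 0 rose, and their median log2 fold change was -0.56. CPT2, which frees fatty acids from carnitine inside the mitochondrion, fell by 0.99 (adjusted p = 3.85e-05), HADHA of the trifunctional protein by 0.76 (adjusted p = 6.33e-05), and ETFDH, which hands electrons to quinone, by 0.56 (adjusted p = 0.000234).

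Of the proteins of the mitochondrial ribosome, which makes the 13 mitochondrially encoded proteins, 37 of 75 tested fell and 0 rose, where 13.8% of all genes fell and 13.9% rose, with a median of -0.33 and examples in MRPS23 (-0.66) and MRPL46 (-0.48). Of genes for mitochondrial DNA replication, transcription and RNA 8 of 29 fell and 1 rose, beside the same shares of all genes. MGME1, a nuclease of mitochondrial DNA replication, fell by 1.34 (SE 0.19, adjusted p = 7.19e-05), top1mt, the mitochondrial topoisomerase, fell by 1.16 (adjusted p = 0.00128), and mterf3, a factor that represses mitochondrial transcription in mice, rose (0.48 ± 0.10, adjusted p = 0.00162, edgeR).

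Import genes (9 of 31), cristae and inner membrane genes (6 of 16) and fusion and fission genes (1 of 6) had calls in the lower direction, where 13.8% of all genes did, and 0 in the higher. Import calls included TIMM44 (-0.50) and TIMM10 (-0.48). The 1 call of the fusion and fission list, MFN2 (-0.21, adjusted p = 0.0464), was lost in 12 of 22 alternatives. PHB2, a prohibitin of the inner membrane, fell under both of its identifiers (-0.82 for ENSDARG00000017728 and -0.36 for ENSDARG00000045297).

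Several calls in each direction were found in 3 lists, beside 13.9% of all genes called higher and 13.8% called lower. Of 17 carriers 5 rose and 4 fell, and the risers included the uncoupling protein genes ucp3 (2.36 ± 0.24, adjusted p = 3.69e-06) and UCP1 (1.26 ± 0.17, adjusted p = 5.36e-05) and 1 of the 2 identifiers of MPC2, a subunit of the pyruvate carrier (ENSDARG00000037679; 0.92 ± 0.10, adjusted p = 4.32e-06, edgeR). MPC2 under ENSDARG00000024478 was at -0.18 ± 0.11 (adjusted p = 0.232). Over the 17 carriers the lowest log2 fold change was -1.31 and the highest 2.36. Of 15 genes tied to the mitochondrial unfolded protein response 3 rose and 4 fell, with the transcription factors atf5b (0.68) and atf5a (0.42) higher and the chaperonin HSPD1 (-0.49) lower. Of 25 regulators of respiratory genes 5 rose and 3 fell, with MYC (ENSDARG00000045695; 0.59, adjusted p = 0.00015) and hif1al (0.56, adjusted p = 0.00176), of the hypoxia-inducible factor family, higher and hcfc1a (-0.39, adjusted p = 0.00481) lower. The other MYC identifier, ENSDARG00000007241, was at 0.11 (adjusted p = 0.437).

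In yap mutants against WT, without the block, these lists held fewer calls, where 3.41% of all genes were called lower and 5.72% higher. There were 6 lower of 75 in the mitochondrial ribosome and 3 lower of 19 in fatty acid oxidation. In the assembly of complexes II to V 3 of 36 were lower. Of 17 carriers 3 were higher and 1 lower, and the other lists had 0 to 2 calls. The lower carrier was SLC25A3 (ENSDARG00000027424, -0.77 ± 0.14, adjusted p = 0.00268, edgeR), called in all 22 alternatives. The 3 higher carriers included UCP1 (1.15) and ucp3 (1.31). Comparisons against WT share the WT libraries, so counts in the mutants are set side by side and not as independent evidence. Between the mutants 2.26% of all genes were called lower and 1.92% higher. There 2 of 22 on the TCA cycle list, 2 of 19 for fatty acid oxidation and 1 of 31 for import were lower. Of 29 mitochondrial DNA and RNA genes 1 was lower and 1 higher, 2 of 17 carriers were higher, and other lists had no call. MGME1 (-1.05, adjusted p = 0.00563, edgeR) and PC under ENSDARG00000051939 (-0.44, adjusted p = 0.00691) held in all 22 alternatives. Each other call was lost in at least 1.

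**Figure D5:**
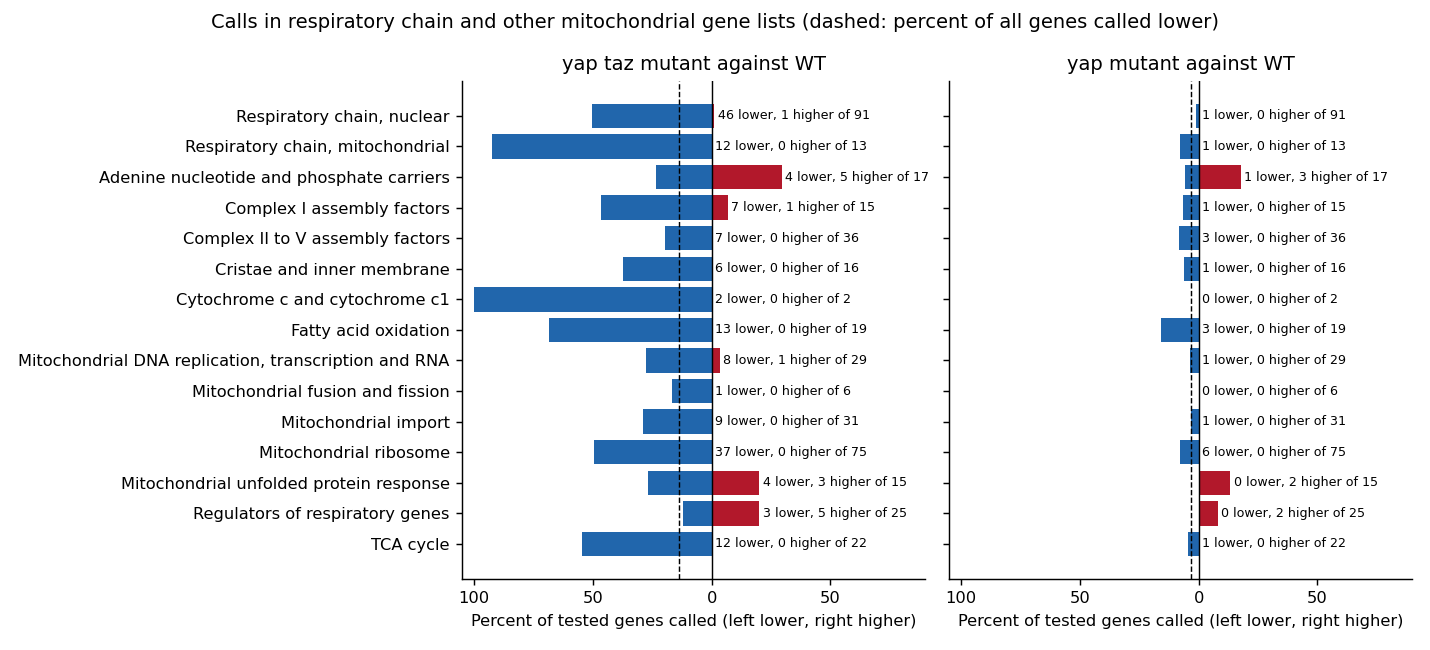
Percent of tested genes called lower (bars to the left) and higher (bars to the right) in the nuclear and mitochondrial respiratory chain and in 13 other lists of mitochondrial genes, for yap taz mutants against WT and yap mutants against WT. The dashed line marks the percent of all genes called lower, 13.8% and 3.41%; counts stand beside each bar, such as 12 of 13 for the mitochondrial respiratory chain genes in yap taz mutants.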

How the data were processed

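PolyA RNA was sequenced on an Illumina HiSeq instrument, per the labels' protocols. The submitters' processing notes name STAR 2.3.0e and HTSeq 0.6.0. The counts the authors deposited are whole numbers for each Ensembl identifier, not normalized. The build, the annotation and the strand setting were not stated in these sources. Of 25473 identifiers 22531 have a symbol in the supplied list of names.

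Groups were taken from the sample titles. After filterByExpr (count 10, total 15) 19493 genes remained. All 12 libraries, with TMM factors, entered 1 quasi-likelihood fit with a coefficient for each genotype (edgeR 4.0.16, R 4.3.3). Tests were two-sided, Benjamini-Hochberg adjustment ran over all genes tested, and a gene was called under an adjusted p of 0.05. A log2 fold change has the group named first on top and is given ± SE, and levels are CPM scaled by total count and TMM factor. The SE reflects the spread between libraries in that fit, and floors of 3 counts cover counting error only. The procedure was run on simulated data in which genes varied independently, with planted changes larger than the median changes reported here. It therefore does not cover changes as small as those medians or genes that shift together by library.

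The members, the 13 pathway lists and 9 marker lists and the tests were chosen with earlier results of these data known. Named genes were all mitochondrial members, core catalytic subunits and their paralogues, the most abundant gene and up to 3 called genes per complex and direction by smallest adjusted p, divided isoform groups, and up to 3 called genes per list; exceptions are marked, and 1 gene under this rule is not reported here. Of 258 list entries 18 had no match, and of 70 marker entries 10 had none.

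Library numbers were taken to pair yap mutants with WT, from the correlations of deviations given above, which come from these same counts. The highest correlations with a WT library of another number were 0.111, 0.0506, 0.134 and 0.0465. The labels do not state a pairing. Correlations for yap taz mutants with WT were 0.166, 0.103, 0.0717 and -0.00482, and for the mutants with each other at most 0.0648, so neither comparison was taken as paired. Alternatives were DESeq2's size factors (RLE), upper-quartile scaling, scaling without mitochondrial genes, no filter, a filter of 1 CPM in 4 libraries, the 8 libraries of 2 genotypes alone, the block, leaving out 1 library at a time, limma-voom (limma 3.58.1) and DESeq2 1.42.0; the block with 8 libraries alone was added after seeing the data.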

Additional observations from a re-analysis of the deposited data

Results flagged for a closer look

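In 7 of 180 groups of 4 libraries tested, 1 library lay far from the other 3 by Dixon's criterion at the 95% level; chance flags about 1 in 20 groups. NDUFA4L2 was at 7.24 CPM in yap taz mutant 3, above the 5.32 to 5.40 CPM of the other yap taz mutant libraries, and its call against WT is lost without that library (adjusted p = 0.053). cox8b was at 12.9 CPM in yap taz mutant 2, with 10.1 to 10.5 CPM in the others. MT-ND4 was at 1318 CPM in yap taz mutant 2, below values of 1402.4 to 1402.9 CPM that lay close together. cox8a was at 180 CPM in yap taz mutant 4, with 201 to 203 CPM in the others, and at 241 CPM in yap mutant 3, with 175 to 183 CPM in the others. COX4I2 was at 25.3 CPM in WT 4, with 30.5 to 31.3 CPM in the other WT libraries. SDHD (ENSDARG00000055712) was at 2.24 CPM in WT 3, with 1.33 to 1.45 CPM in the others. The cause was not tested for any of them.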

How the results depend on the processing

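Median fold changes of nuclear and mitochondrial genes, summed levels and the ratio of genomes moved by less than 1 SD between libraries in the alternatives run. That bound is weak, since leaving out 1 of 4 libraries cannot move a group mean by 1 SD of that group. Scaling factors also cancel in the ratio, so scaling could not move it. Directions were kept but for 1: the log2 ratio of genomes in yap mutants against WT, 0.032, was -0.00081 without yap mutant 2. Without yap mutant 3 the nuclear median was -0.01 between the mutants (-0.11 with it) and -0.29 in yap mutants against WT (-0.18 with it). Counts near a threshold moved. In yap mutants against WT, where the numbers were taken to pair the libraries, the replicate block gave 2758 of all genes called (1780 without it). With 8 libraries alone the block gave 3380, and without the block these gave 1163. Libraries left out gave 942 to 3041. Nuclear genes called lower there numbered 2 with RLE scaling, 3 with upper-quartile scaling, 3 with mitochondrial genes left out of scaling, 4 without a filter, 2 with limma-voom, 7 with DESeq2, 0 with 8 libraries alone, 21 with the block, 29 with the block and 8 libraries, and 0 to 43 with a library left out; mitochondrial genes numbered 2 with DESeq2, 0 with 8 libraries alone, 4 with the block, 6 with the block and 8 libraries, and 0 to 3 with a library left out.

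In yap taz mutants against WT, leaving out a library gave 28 (without WT 2 and also without WT 3) to 56 nuclear genes called lower and 0 to 1 higher, and the fold change of NDUFA4, not called in any of them, ran between -0.0938 without WT 4 and 0.00895 without WT 2. Between the mutants, the block gave 1443 of all genes called, and libraries left out gave 441 to 1087. Nuclear genes called lower there numbered 2 with upper-quartile scaling, 1 without mitochondrial genes in the scaling, 1 without a filter, 3 with 8 libraries alone, 3 with the block added to these, 8 with the block, 3 with DESeq2 and 0 to 5 with a library left out. Mitochondrial genes numbered 8, 7, 8, 11 and 8 with upper-quartile scaling, no filter, 8 libraries alone, the block and DESeq2, and 0 to 7 with a library left out. The library numbers were not taken to pair libraries in these last comparisons, so the block is given there as a setting. Causes were not tested.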
